A study of Mus musculus with 20 samples.

Results

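The genes described here are the cytosolic ribosomal protein genes of the mouse, taken by symbol (Rpl or Rps followed by a number, the stalk proteins Rplp0 to Rplp2, and Rpsa, without pseudogene names or the Rps6k kinases) where they held at least 20 UMIs in the cells kept from 9 libraries of the basolateral amygdala (BLA). A UMI is a molecular barcode that marks 1 captured mRNA molecule. By this rule 80 genes were members, of 83 whose symbols match and of 31053 genes in the files. Of the members, 48 encode proteins of the large subunit and 32 of the small subunit, and all 80 were seen in every library. The members with the fewest UMIs were Rpl7l1 with 574, Rpl13a with 780 and Rps27l with 1342, and the symbols left out were Rpl39l with 9, Rpl3l with 4 and Rpl10l with 0. The members were thus selected on their symbols and on the number of UMIs measured in these libraries, so nothing is read from how high they are.

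Single-cell libraries were made from the dissociated BLA of wild-type male C57BL/6 mice aged 13 weeks, with 1 library per mouse. Mice drank corticosterone (CORT, a stress hormone) at 35 µg/ml or the cyclodextrin vehicle (BCD) for 6 weeks, and received ketamine (Ket) at 10 mg/kg or saline (Sal) 24 h before the tissue was taken. Vehicle and saline made up the BCD-Sal group, with mice 9901 and 9947, and vehicle with ketamine the BCD-Ket group, with 9946, 9949 and 9986. Corticosterone with saline (CORT-Sal) was given to mice 9969 and 9970, and corticosterone with ketamine (CORT-Ket) to 9967, 9968 and 9971. Oral corticosterone models the hormonal arm of chronic stress and not its other parts. Prefrontal samples were not analysed here.

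Most ribosomal proteins are made in near-equal numbers and assemble once into a subunit. Their mRNAs open with a pyrimidine tract that lets the mTOR pathway switch their translation on or off together. A few members have a second gene copy that encodes a closely related protein, a paralog such as Rpl22l1 for Rpl22, and which copy a cell uses can differ between tissues. In the brain, ribosomes of neurons sit in the cell body and also in dendrites and axons, much of which is lost when tissue is dissociated.

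Shown here are the transcription starts of the paralog pairs and of members whose use differed between cell types. Promoters were matched by symbol in RefSeq (GRCm38.p6) for 60 of the 80 members, and no sequence is shown for the other 20. Each line gives 30 bases, 10 before the annotated start and 20 from it, 5′ to 3′ on the gene's strand. Capitals mark the longest run that starts within 10 bases of the annotated start, opens with C and goes on with at least 4 more C or T bases, the form of a terminal oligopyrimidine tract.
Rpl22, chr4:152324426-152324455, plus strand: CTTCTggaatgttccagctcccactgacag
Rpl22l1, chr3:28805498-28805527, plus strand: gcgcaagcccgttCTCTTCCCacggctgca
Rps27, chr3:90213629-90213658, minus strand: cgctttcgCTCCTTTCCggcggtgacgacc
Rps27l, chr9:66946076-66946105, plus strand: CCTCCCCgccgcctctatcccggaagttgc
Rpl7l1, chr17:46782637-46782666, minus strand: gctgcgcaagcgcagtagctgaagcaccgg
Rpl13, chr8:123102340-123102369, plus strand: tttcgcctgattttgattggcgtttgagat
Rpl38, chr11:114668570-114668599, plus strand: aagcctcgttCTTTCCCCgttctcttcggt
Rps9, chr7:3704031-3704060, plus strand: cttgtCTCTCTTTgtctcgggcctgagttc
Rplp0, chr5:115559457-115559486, plus strand: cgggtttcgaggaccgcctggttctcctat
The windows of Rpl13, Rplp0 and Rpl7l1 held no such run. Over the 60 matched members, 12 (20%) had the run at the annotated start itself and 34 (56.7%) had one within 10 bases, against 2.53% and 30.7% of all 27025 promoters in the table. The letters CCGGAAG, searched on both strands of the 300 bases around the start, were in 25 member promoters (41.7%) and in 9.08% of all promoters. TATAAA, searched in the same way, was in 7 (11.7%) and in 14.1%. The median GC content of the member promoters was 58.2%, against 52.7% of all. These are matches of letters at annotated starts, and the starts used in BLA cells were not measured.

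Of 28722 barcodes, 8305 passed a limit on the mitochondrial share and held at least 200 genes, and members took 1.98 to 6.46% of the UMIs kept in each of 9 libraries. The CORT-Sal library of mouse 9970 stood apart, with a median mitochondrial share of 3.22% before filtering against 33.2 to 57.9% in the others, 97.1% of its barcodes kept, and 10.0% of its UMIs on members. Most of its cells (2346) fell into a cluster with no class name, so that library enters only where it is named. In 7 of the other 9 libraries the barcodes rejected for mitochondrial content had 9.34 to 16.1% of their non-mitochondrial UMIs on members, and in BCD-Sal mouse 9947 and BCD-Ket mouse 9946 they had 3.01% and 3.06%. The kept barcodes of these 9 libraries had 2.14 to 6.92% of their non-mitochondrial UMIs on members. Of 8280 kept barcode sequences, 21 occurred in more than 1 library. Cells were clustered without the members, and clusters were named X-like from marker genes. The names were rebuilt here and are not the authors' annotation.

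The share of UMIs on ribosomal protein genes differed widely between cell classes, with macrophages and blood vessel cells at the top and neurons and astrocytes at the bottom. Border macrophage-like cells, the macrophages of meninges and vessels, had 17.1% ± 3.34 of their UMIs on members (mean ± SD, n = 4 libraries). Microglia-like cells, the resident macrophages of the tissue, followed with 9.05% ± 1.78 (n = 6) and endothelial-like cells, which line the vessels, with 7.11% ± 1.23 (n = 9). All 4 libraries with both classes had more in border macrophage-like than in microglia-like cells, by 1.90-fold ± 0.25, and the library ranges of the classes did not overlap. The border macrophage-like cluster held only 52 cells over all libraries, at most 23.1% of them from 1 library. It was named on 8 markers, and 2 markers of neutrophils or monocytes were also among its leading genes, so other immune cells may be mixed in.

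Pericyte or smooth muscle-like cells had 5.22% ± 0.96 (n = 7), choroid plexus-like cells 5.06% ± 1.49 (n = 4) and oligodendrocyte-like cells, the myelin-forming glia, 3.72% ± 0.52 (n = 8). Oligodendrocyte precursor (OPC)-like cells had 2.78% ± 0.56 (n = 6) and astrocyte-like cells 2.18% ± 0.18 (n = 6). Excitatory neuron-like cells had 2.02% ± 0.57 (n = 9), striatal projection neuron-like cells 1.76% ± 0.51 (n = 5) and inhibitory neuron-like cells 1.5% ± 0.56 (n = 6). The order held in every shared library for microglia over endothelial (6 of 6), endothelial over pericyte (7 of 7), oligodendrocyte over OPC (6 of 6) and striatal over inhibitory (5 of 5). It held in 3 of 4 libraries for choroid plexus over oligodendrocyte and in 5 of 6 for OPC over astrocyte. Neighbours without a clear order were pericyte and choroid plexus (2 of 4), astrocyte and excitatory (3 of 6) and excitatory and striatal (2 of 5). Excitatory neuron-like cells were made of 2 clusters, whose mean shares were 1.76% and 2.22%. The larger cluster, of 850 cells, was named on 3 markers, the minimum, and 45.2% of it came from BCD-Sal mouse 9901. The smaller, of 202 cells, was named on 8 markers.

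**Figure D1:**
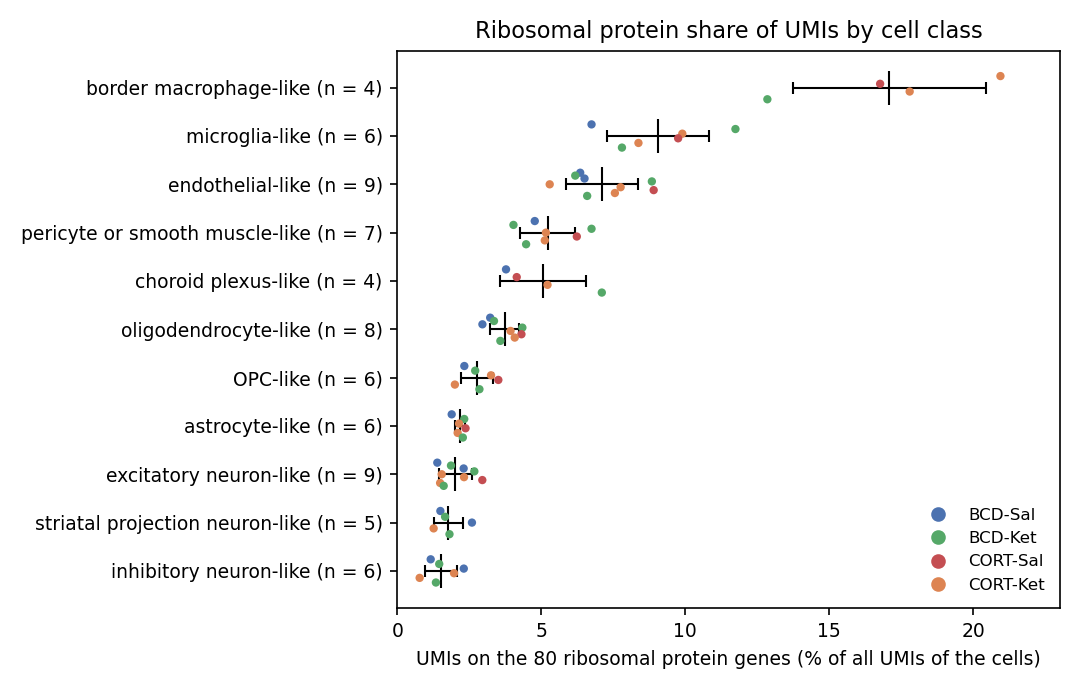
Share of UMIs on the 80 ribosomal protein genes, in percent of all UMIs of a class in a library, by cell class. Points are libraries coloured by treatment, the tick is the mean and the bar the SD. The means fall from 17.1% in border macrophage-like cells to 1.5% in inhibitory neuron-like cells.

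Other measures also differed between the classes. Malat1, a long RNA retained in the nucleus, took 2.26% of UMIs in border macrophage-like and 3.85% in microglia-like cells, and 9.92% in astrocyte-like and 7.62% in OPC-like cells. It took 3.69% in inhibitory neuron-like cells, which had the lowest member share. Mitochondrial UMIs were 5.11 to 8.48% over the classes, and median UMIs per cell 1008 to 2972. An unnamed cluster of 70 cells had 1.06% of UMIs on members, 11.5% on Malat1 and a median of 505 UMIs. The part of nuclear RNA, depth or free RNA in the member shares was not tested.

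Which members carried the difference was asked with edgeR's quasi-likelihood test on UMIs summed per class and library, each class against the mean of the other 10 classes with the library as a block. A member was called at a Benjamini-Hochberg adjusted p of 0.05 over all 7406 genes tested. In border macrophage-like cells all 80 members were higher, where 12.8% of all genes were. In microglia-like cells 78 members were higher (31.6% of all genes) and in endothelial-like cells 79 (34.4%). Pericyte or smooth muscle-like cells had 51 members higher (29.9%), and oligodendrocyte-like cells 22 higher (26.9%) and 2 lower (14.6%). Choroid plexus-like cells had 1 member higher (11.7%) and 0 lower (5.4%). The count of higher members in oligodendrocyte-like cells is not far from the share of all genes, and the choroid plexus-like counts are below it. The lesser counts depended on single libraries and on the scaling. Pericyte or smooth muscle-like cells had 31 higher without BCD-Sal mouse 9901 and 16 with RLE factors, and oligodendrocyte-like cells had 8 higher without BCD-Ket mouse 9946, 37 without CORT-Sal mouse 9969, 36 without CORT-Ket mouse 9968, and 15 higher and 14 lower with RLE factors. The shares of all genes called in these refits are not given here. The median member less the median of all genes was 0.32 in pericyte or smooth muscle-like cells and 0.33 with RLE factors. In oligodendrocyte-like cells it was 0.23 in both.

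The neurons and the other glia went the other way. In excitatory neuron-like cells 79 members were lower (13% of all genes), in inhibitory neuron-like cells 77 (11.7%) and in striatal projection neuron-like cells 77 (11.1%). Astrocyte-like cells had 66 lower (11.7%), and OPC-like cells had 71 lower (7.83%) and 1 higher (29.3%). The astrocyte-like count fell to 35 without CORT-Sal mouse 9969 and 38 without CORT-Ket mouse 9968, and the OPC-like count to 41 without 9969, 46 without BCD-Ket mouse 9986 and 47 without CORT-Ket mouse 9971. Shares of all genes in those refits are not given here. The median log2 difference of the members, less that of all genes tested, was 2.90 in border macrophage-like, 1.51 in microglia-like, 1.00 in endothelial-like, -0.79 in astrocyte-like, -1.36 in excitatory neuron-like and -1.52 in inhibitory neuron-like cells. Another scaling (edgeR's RLE factors) shifted the median of all genes by -0.37 in microglia-like to 0.47 in inhibitory neuron-like cells. Relative to that median the members then stood at 1.5 and -1.55.

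The members at the ends of these ranges differed by class. In border macrophage-like cells the largest differences included Rplp0, the scaffold of the ribosomal stalk that binds elongation factors, at 2.82 ± 0.20 (log2 ± SE), and Rps9, a small-subunit protein of the decoding side, at 2.82 ± 0.19. Rplp0 stood at 2917, 1704, 2193 and 1595 CPM (its UMIs scaled to a common total of all UMIs of the class in that library) in the 4 libraries with border macrophage-like cells (mice 9968, 9969, 9971 and 9986). In excitatory neuron-like cells the highest of 9 libraries was at 126 CPM and the lowest 35.6, so the ranges were far apart. In microglia-like cells Rps9 (2.34 ± 0.14), Rps12 (2.23 ± 0.14) and Rplp0 (2.22 ± 0.14) led. Rpl22l1 at 0.19 ± 0.16 (adjusted p = 0.41) and Rps27l at 0.29 ± 0.18 (adjusted p = 0.23) were the 2 members not called there.

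Endothelial-like cells had their largest differences in Rpl38, a small large-subunit protein known for patterning defects in mice that lack a copy, at 1.56 ± 0.13, then Rps20 at 1.55 ± 0.12 and Rps14 at 1.43 ± 0.13. Rpl22l1 was the member not called, at 0.06 ± 0.14 (adjusted p = 0.85). Pericyte or smooth muscle-like cells were led by Rps27l (1.5 ± 0.19), the p53-inducible paralog of Rps27, then Rps16 (1.01 ± 0.15) and Rpl7 (0.94 ± 0.16). The heat shock and dissociation response genes moved in the same vessel classes, with 13 of 14 higher in endothelial-like (34.4% of all genes) and 12 of 14 in pericyte or smooth muscle-like cells (29.9%). Their part in the member levels was not tested.

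In oligodendrocyte-like cells Rplp0 (0.99 ± 0.15), Rpsa (0.90 ± 0.14), which is also the laminin receptor precursor, and Rps27l (0.82 ± 0.19) were the most raised. Rpl10a (-0.59 ± 0.16) and Rps29 (-0.43 ± 0.16) were the 2 lower, and the Rps29 call was lost in 8 alternatives. In choroid plexus-like cells the 1 called member was Rpl41, which encodes the shortest ribosomal protein, at 0.81 ± 0.21 (adjusted p = 0.0027). The choroid plexus-like library of BCD-Ket mouse 9986 had 0.506% of its UMIs on choroid plexus markers, against 6.28 to 13.2% in the other 3, and without it the member share of the class was 4.38%.

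In excitatory neuron-like cells the lowest members were Rps27l (-2.54 ± 0.27), Rplp0 (-1.91 ± 0.18) and Rps9 (-1.71 ± 0.17). Striatal projection neuron-like cells gave Rps27l (-2.86 ± 0.58), Rpl18 (-2.31 ± 0.31) and Rplp0 (-2.24 ± 0.34), and inhibitory neuron-like cells Rplp0 (-2.48 ± 0.34) and Rpl10 (-2.32 ± 0.38). Of these, Rps27l in striatal projection neuron-like cells rests on 4 UMIs and Rpl10 in inhibitory neuron-like cells on 13. Rpl22l1 was not called in any of the 3 neuron classes, at 0.07 ± 0.13, -0.18 ± 0.26 and -0.14 ± 0.25 with adjusted p of 0.74, 0.72 and 0.77. Astrocyte-like cells were lowest in Rpl13a (-1.27 ± 0.24), Rps6 (-1.07 ± 0.18), the small-subunit protein phosphorylated by S6 kinase, and Rps3a1 (-1.04 ± 0.18). OPC-like cells were lowest in Rpl4 (-1.23 ± 0.23), Rps3 (-1.22 ± 0.21) and Rpl19 (-1.21 ± 0.20).

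Rpl13, a large-subunit protein, was the 1 member higher in OPC-like cells, at 1.31 ± 0.15 (edgeR, adjusted p = 1.5e-14) where the median member was -0.77. As a share of all member UMIs, Rpl13 held 7.93% in BCD-Sal mouse 9901, 8.27% in BCD-Ket mouse 9949, 10.8% in BCD-Ket mouse 9986, 9.48% in CORT-Sal mouse 9969, 11.0% in CORT-Ket mouse 9968 and 12.4% in CORT-Ket mouse 9971. Every one of these lay above the 64 other class-and-library values, which ran from 1.23 to 5.38% with a median of 2.41%. The OPC-like mean was 2757 ± 674 CPM (SD, n = 6), against 530 ± 74 in astrocyte-like (n = 6), 854 ± 102.7 in oligodendrocyte-like (n = 8) and 505 ± 131 in excitatory neuron-like cells (n = 9). The next member in OPC-like cells, Rps29, held 2.56% ± 1.37.

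The Rpl13 gene lies at chr8:125626250-125629144 on the plus strand of NCBIM37 (GENCODE M1), and that span also holds the annotations Snord68, a small nucleolar RNA, and Gm20388. Reads of overlapping annotations may not be told apart, and which of them the Rpl13 UMIs in OPC-like cells come from was not tested. The difference stayed called in each of the alternatives run, and leaving out single libraries gave 1.31 to 1.54.

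To separate composition from amount, the same fit was scaled to the summed member UMIs, so that a difference says which members took more or less of the ribosomal protein UMIs of a class. This scale moves other genes as a block, which shows in the share of all genes called, given in parentheses. Higher and lower members numbered 15 (9.96%) and 16 (54.7%) in microglia-like, 13 (5.48%) and 14 (72.8%) in border macrophage-like, 14 (14.5%) and 8 (49.3%) in endothelial-like, and 5 (19%) and 1 (20.7%) in pericyte or smooth muscle-like cells. They numbered 15 (23%) and 10 (17.8%) in oligodendrocyte-like, 6 (57%) and 10 (1.44%) in OPC-like, and 14 (63.2%) and 1 (3.81%) in astrocyte-like cells. In neurons they were 12 (76.4%) and 10 (1.76%) for excitatory, 4 (61.5%) and 2 (0.702%) for inhibitory, and 5 (56.6%) and 8 (1.43%) for striatal projection, and in choroid plexus-like cells 1 (11.8%) and 2 (5.63%). Taking both directions together, OPC-like cells had 16 called members, and 9 without BCD-Ket mouse 9949, 9 without CORT-Sal mouse 9969 and 8 without CORT-Ket mouse 9968. Pericyte or smooth muscle-like cells had 6, and 10 without BCD-Ket mouse 9986, 10 without 9969 and 12 without CORT-Ket mouse 9971, striatal projection neuron-like cells had 13, and 6 without 9986, and inhibitory neuron-like cells had 6, and 16 without the library block. For these refits the shares of all genes are not given here.

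**Figure D2:**
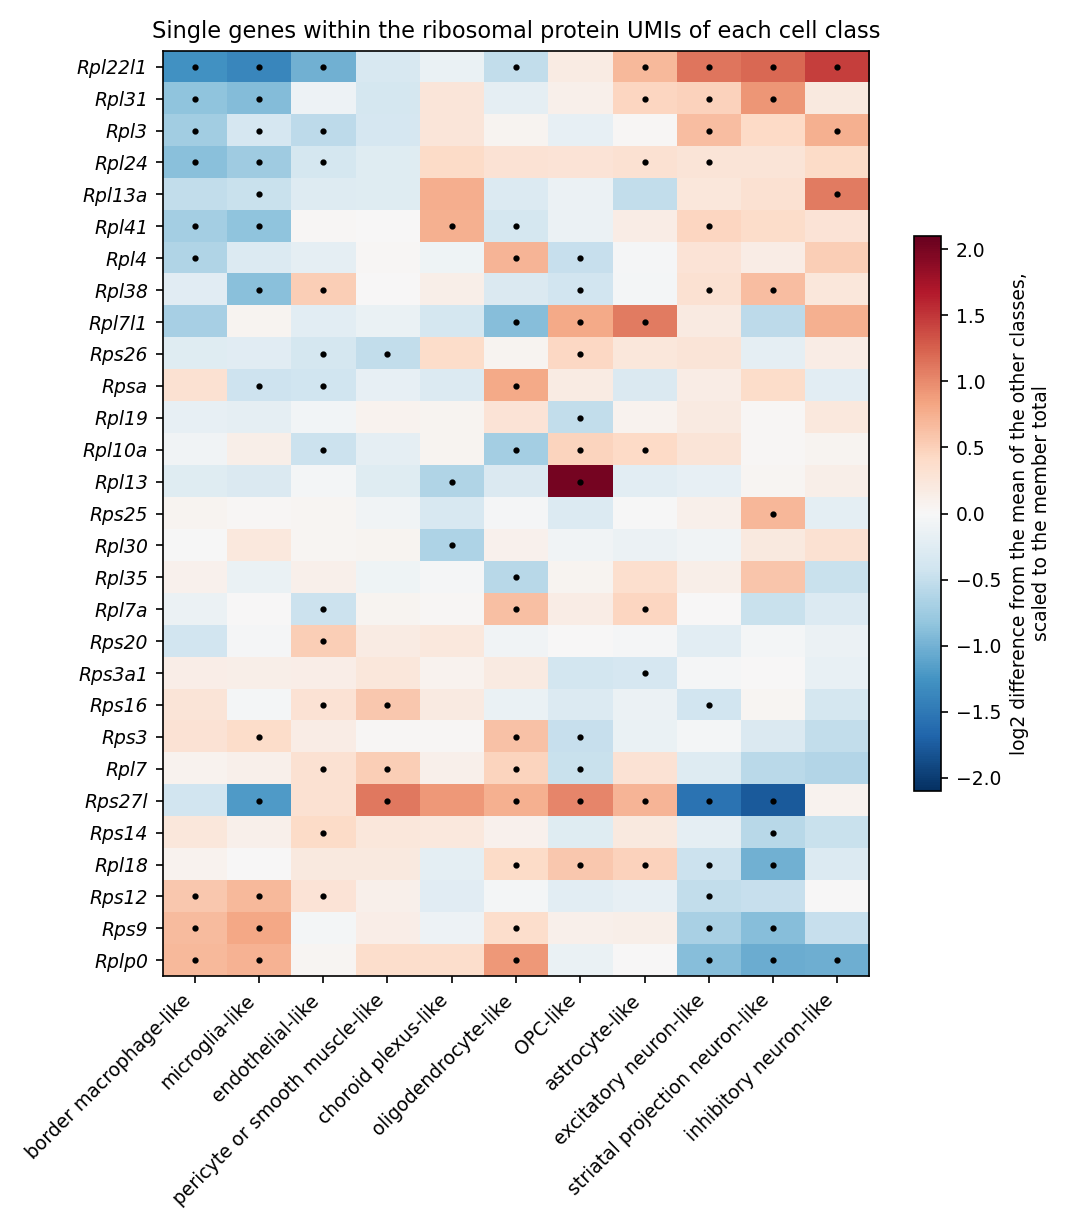
Log2 difference of named members in each class against the mean of the other classes, on the scale of the member total, with dots at an adjusted p under 0.05. Rpl13 stands out in OPC-like cells at 2.01, and Rpl22l1 runs from -1.37 in microglia-like to 1.45 in inhibitory neuron-like cells.

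On this scale Rpl13 in OPC-like cells stood at 2.01 ± 0.13 (edgeR, adjusted p = 1.9e-30), followed by Rps27l at 1.03 ± 0.23 and Rpl7l1 at 0.79 ± 0.34, and the lowest were Rpl19 (-0.52 ± 0.17), Rps3 (-0.49 ± 0.19) and Rpl4 (-0.48 ± 0.21). In microglia-like cells Rps9 (0.81 ± 0.14), Rplp0 (0.73 ± 0.14) and Rps12 (0.68 ± 0.13) took more, and Rpl22l1 (-1.37 ± 0.16), Rps27l (-1.19 ± 0.20) and Rpl31 (-0.91 ± 0.15) took less. In border macrophage-like cells Rplp0 (0.69 ± 0.19) and Rps9 (0.67 ± 0.18) took more, and Rpl22l1 (-1.27 ± 0.25), Rpl24 (-0.87 ± 0.21) and Rpl31 (-0.85 ± 0.23) took less. These values describe unequal use, and not that any member was constant.

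In excitatory neuron-like cells Rpl22l1 (1.12 ± 0.13), Rpl3 (0.64 ± 0.12), a protein near the peptidyl transferase centre, and Rpl31 (0.49 ± 0.13), which lies at the tunnel exit, took more, while Rps27l (-1.54 ± 0.25), Rplp0 (-0.89 ± 0.16) and Rps9 (-0.69 ± 0.15) took less. Inhibitory neuron-like cells had Rpl22l1 (1.45 ± 0.26), Rpl13a (1.09 ± 0.49) and Rpl3 (0.75 ± 0.22) higher, and Rplp0 (-1.02 ± 0.36) lower. Rpl13a there had only 1, 0, 11, 5, 0 and 0 UMIs in mice 9901, 9946, 9947, 9967, 9971 and 9986. Striatal projection neuron-like cells had Rpl22l1 (1.21 ± 0.27), Rpl31 (0.92 ± 0.25) and Rps25 (0.70 ± 0.25) higher, and Rps27l (-1.76 ± 0.64), Rplp0 (-1.05 ± 0.35) and Rpl18 (-1.01 ± 0.32) lower. The Rps27l value of this class rests on 4 UMIs, and its call was lost in 3 alternatives. By level, Rpl3 was 1.85% ± 0.29 of member UMIs in excitatory neuron-like cells (n = 9) and 0.853% ± 0.10 in endothelial-like cells (n = 9), and Rplp0 was 0.431% ± 0.10 and 0.734% ± 0.15.

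Endothelial-like cells used more Rpl38 (0.52 ± 0.12), Rps20 (0.51 ± 0.12) and Rps14 (0.40 ± 0.12) and less Rpl22l1 (-1.01 ± 0.14), Rpl3 (-0.54 ± 0.12) and Rpl7a (-0.45 ± 0.13). Oligodendrocyte-like cells used more Rplp0 (0.91 ± 0.14), Rpsa (0.80 ± 0.13) and Rps27l (0.75 ± 0.19) and less Rpl7l1 (-0.90 ± 0.35), Rpl10a (-0.71 ± 0.16) and Rpl35 (-0.58 ± 0.19). Rpsa made up 2.50% ± 0.56 of member UMIs there (n = 8), against 1.04% ± 0.11 in microglia-like cells (n = 6). Astrocyte-like cells used more Rpl7l1 (1.09 ± 0.24), Rps27l (0.72 ± 0.18) and Rpl22l1 (0.68 ± 0.15) and less Rps3a1 (-0.36 ± 0.16). Pericyte or smooth muscle-like cells used more Rps27l (1.11 ± 0.19), Rps16 (0.56 ± 0.13) and Rpl7 (0.51 ± 0.15) and less Rps26 (-0.51 ± 0.16), and choroid plexus-like cells more Rpl41 (0.75 ± 0.19) and less Rpl30 (-0.65 ± 0.23) and Rpl13 (-0.64 ± 0.22).

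The balance of the subunits also shifted. Large-subunit members held 55.8% of all 620155 member UMIs. By class the share rose from 52.9% ± 0.48 in border macrophage-like (n = 4), 54.6% ± 0.64 in microglia-like (n = 6) and 55.1% ± 0.38 in endothelial-like cells (n = 9) to 58.1% ± 0.56 in astrocyte-like (n = 6), 59.0% ± 0.68 in excitatory neuron-like (n = 9) and 60.1% ± 1.47 in OPC-like cells (n = 6), where Rpl13 alone held 9.97% ± 1.72. The place of OPC-like cells at the top of this order depends on Rpl13. The highest endothelial-like library stood at 55.8% and the lowest excitatory neuron-like library at 58.1%, with no overlap. The other neuron classes did overlap endothelial-like cells, at 53.3 to 60.3% in striatal projection neuron-like and 55.1 to 63.0% in inhibitory neuron-like libraries. No test was made of this sum.

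Rpl22l1 is the paralog of Rpl22, an RNA-binding protein of the large subunit,, and the pair is described by the share of its UMIs that each copy took. Its share of the Rpl22 plus Rpl22l1 UMIs was 22.4% ± 2.66 in microglia-like (n = 6), 24.8% ± 4.64 in endothelial-like (n = 9) and 27.0% ± 13.7 in border macrophage-like cells (n = 4). It was 32.9% ± 8.62 in pericyte or smooth muscle-like (n = 7), 37.3% ± 9.57 in oligodendrocyte-like (n = 8), 40.5% ± 11.2 in choroid plexus-like (n = 4) and 45.05% ± 5.60 in OPC-like cells (n = 6). It was 56.0% ± 2.95 in astrocyte-like (n = 6), 61.9% ± 22.6 in striatal projection neuron-like (n = 5), 67.7% ± 6.85 in excitatory neuron-like (n = 9) and 76.2% ± 13.3 in inhibitory neuron-like cells (n = 6).

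By library, Rpl22l1 in excitatory neuron-like cells held 57.1%, 71.3% and 77.1% of the pair at the lowest, the median and the highest of 9 libraries. In microglia-like cells the lowest, median and highest of 6 libraries were 19.3%, 21.6% and 26.8%, and in endothelial-like cells those of 9 libraries were 13%, 25.3% and 28.9%. Every excitatory neuron-like library was above every microglia-like and endothelial-like one. Several neuron values rest on few UMIs, with 2 to 73 UMIs of the pair per library in inhibitory neuron-like cells.

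**Figure D3:**
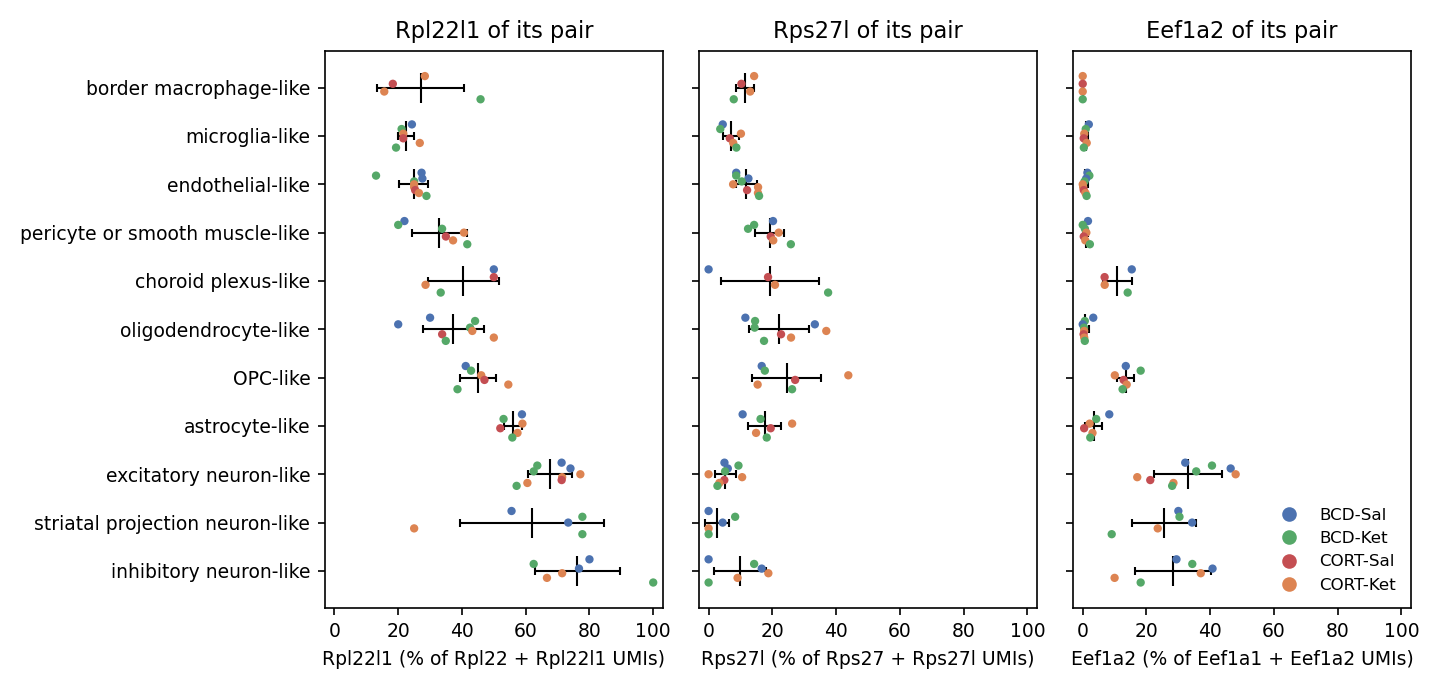
Share of the paralog in its pair, in percent of the UMIs of both genes, by class and library for Rpl22l1, Rps27l and Eef1a2. Points are libraries coloured by treatment, the tick is the mean and the bar the SD. Rpl22l1 runs from a mean of 22.4% in microglia-like to 76.2% in inhibitory neuron-like cells.

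The shift came with a different pattern for each copy. Rpl22l1 was at 189 ± 34.5 CPM in microglia-like, 187 ± 57.4 in endothelial-like and 213 ± 78.4 in excitatory neuron-like cells. Rpl22 was at 658 ± 123, 562 ± 127 and 98.4 ± 28.3 CPM in the same classes. Over the 10 classes other than border macrophage-like, class means ran from 127 to 237 CPM for Rpl22l1 and from 67.7 to 658 for Rpl22. Border macrophage-like cells had both copies higher, at 399 ± 141 and 1171 ± 386. Within the member total Rpl22 was higher in endothelial-like (0.36 ± 0.12, edgeR adjusted p = 0.0053) and lower in excitatory neuron-like cells (-0.36 ± 0.14, adjusted p = 0.017).

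Rps27l, the paralog of Rps27, a zinc-binding small-subunit protein, followed another order. Its share of the pair was 2.55% ± 3.76 in striatal projection neuron-like (n = 5), 5.24% ± 3.22 in excitatory neuron-like (n = 9) and 6.89% ± 2.49 in microglia-like cells (n = 6). It was 19.2% ± 4.56 in pericyte or smooth muscle-like (n = 7), 22.1% ± 9.33 in oligodendrocyte-like (n = 8) and 24.5% ± 10.7 in OPC-like cells (n = 6). It was 9.80% ± 8.25 in inhibitory neuron-like (n = 6), 11.4% ± 2.86 in border macrophage-like (n = 4), 11.9% ± 3.22 in endothelial-like (n = 9), 17.6% ± 5.19 in astrocyte-like (n = 6) and 19.2% ± 15.3 in choroid plexus-like cells (n = 4). Over 9 excitatory neuron-like libraries 37 of 752 UMIs of the pair were Rps27l, and the highest library, at 10.5%, was below the lowest pericyte or smooth muscle-like library, at 12.4%. The library ranges of microglia-like (3.66 to 10.1%) and excitatory neuron-like cells overlapped for Rps27l, where those for Rpl22l1 did not.

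Rpl7l1, the paralog of Rpl7 with a role in ribosome assembly, took 4.43% ± 3.67 of its pair in oligodendrocyte-like (n = 8), 5.27% ± 4.22 in pericyte or smooth muscle-like (n = 7), 14.2% ± 2.61 in astrocyte-like (n = 6) and 18.1% ± 5.93 in OPC-like cells (n = 6). In inhibitory neuron-like cells it was 25.5% ± 27.3 on 46 UMIs in 6 libraries, which sets no level. Rpl10l, a testis-type copy of Rpl10, had 0 of 1543 UMIs of its pair in microglia-like and 0 of 1029 in endothelial-like cells, which allow shares of up to 0.194% and 0.292%. Rpl3l, a muscle-type copy of Rpl3, had 0 of 1580 in endothelial-like cells, which allows up to 0.190%.

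Eef1a2 replaces the elongation factor Eef1a1 in mature neurons and muscle and was not a member. Its share of the pair also depends on how much Eef1a1 a class holds, so it does not measure free RNA from neurons. Eef1a2 held 33.1% ± 10.6 of its pair in excitatory neuron-like (n = 9), 28.3% ± 11.9 in inhibitory neuron-like (n = 6) and 13.5% ± 2.65 in OPC-like cells (n = 6). In choroid plexus-like cells it held 10.8% ± 4.57 (n = 4) and in astrocyte-like cells 3.44% ± 2.70 (n = 6). It held 0.863% ± 0.68 in endothelial-like (n = 9), 0.873% ± 0.63 in microglia-like (n = 6) and 0 of 542 UMIs in border macrophage-like cells, which allows up to 0.554%. These limits cover counting error only, and the part of free RNA in the member values was not tested.

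In the start windows printed above, the run of Rpl22l1 opens 3 bases past the annotated start and that of Rps27 spans it. The marked run of Rps27l lies upstream, and a shorter unmarked one opens just past the start. Rpl22 has an upstream run, marked in capitals, and an unmarked one of equal length past the start. Counts of some members are uncertain. Processed pseudogenes near-identical to ribosomal protein genes are common, and 28 members overlap a small nucleolar RNA gene in GENCODE M1. Among names outside the rule, Rps27rt had 925 UMIs and Rpl10-ps3 had 435. The part of shared reads in any member's count was not tested.

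Genes of the ribosome outside the member rule can be set beside the members. Rack1, a small-subunit scaffold, stood at 2.63 ± 0.21 in border macrophage-like and -1.32 ± 0.16 in excitatory neuron-like cells. Fau, which encodes the small-subunit protein eS30, stood at 2.72 ± 0.18 in border macrophage-like and -1.24 ± 0.16 in excitatory neuron-like cells. Of 9 genes listed with the elongation factors, Tpt1 among them, 8 were higher in microglia-like (31.6% of all genes) and 7 in endothelial-like cells (34.4%). Of the same list, 6 were lower in inhibitory neuron-like cells (11.7%). Tpt1, an mRNA of the pyrimidine-tract kind, was 2.74 ± 0.19 in border macrophage-like, 1.75 ± 0.13 in endothelial-like and -2.67 ± 0.28 in inhibitory neuron-like cells.

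Initiation factors followed less evenly. Of 26 tested, 18 were higher in endothelial-like (34.4% of all genes) and 18 in oligodendrocyte-like cells (26.9%), where 1 was lower (14.6%), and 13 were lower in inhibitory neuron-like cells (11.7%). In border macrophage-like cells, where every member was higher, 6 of the 26 were, beside 12.8% of all genes. Of 9 ribosome biogenesis genes tested, 1 was higher in border macrophage-like (12.8% of all genes), 4 in microglia-like (31.6%) and 5 in excitatory neuron-like cells (45.7%), where 4 were lower (13%). The counts of higher genes are not far from the shares of all genes. Npm1, a nucleolar chaperone, was 1.52 ± 0.27 in border macrophage-like and -0.68 ± 0.15 in excitatory neuron-like cells. Of 10 regulators of pyrimidine-tract mRNAs, 6 were higher in excitatory neuron-like cells, where 45.7% of all genes were, and 2 were lower in border macrophage-like cells, where 11.7% were. The first count is not far from the share of all genes. Larp1, which binds these mRNAs, stood at 0.76 ± 0.13 in excitatory neuron-like cells.

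The measured spread between libraries differed between members. The coefficient of variation over libraries of a member's share of member UMIs, as a median over 8 classes, was 51.2% for Rpl13a, 45.9% for Rpl35, 44.7% for Rps29, 41.6% for Rps28 and 36.7% for Rpl38. These values include counting error, which was not separated. Rpl13a, for example, had only 3 to 19 UMIs in the astrocyte-like libraries, so the values do not rank the members by steadiness. Rps29, a zinc-binding small-subunit protein, was the member with the most UMIs (17803), ahead of Rpl13 (16497) and Rplp1 (15985), and 28 members held 50% of the total.

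Rps29 followed the library across cell classes. In BCD-Sal mouse 9901 it ranked first or second among libraries in 10 of 10 classes and ran from 3.08 to 5.63% of member UMIs, and in BCD-Ket mouse 9949 it ranked so in 7 of 7 and ran from 2.60 to 5.69%. CORT-Ket mouse 9968 had the lowest median, 1.41% over 8 classes. In microglia-like cells the values were 5.63% (BCD-Sal 9901), 5.69% (BCD-Ket 9949), 2.29% (BCD-Ket 9986), 3.26% (CORT-Sal 9969), 2.12% (CORT-Ket 9968) and 2.78% (CORT-Ket 9971). The 2 high libraries both came from vehicle-drinking mice, 1 given saline and 1 ketamine, and mice of the same treatments, 9947 with a median of 1.75% and 9986 with 1.79%, were among the low ones. Rps28, which lies beside the mRNA exit, was also highest in 9901 and 9949 in microglia-like cells, at 1.53% and 1.66% against 0.558 to 1.05% in the other 4. No sequencing batch is named in the labels, so what sets these libraries apart was not tested.

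**Figure D4:**
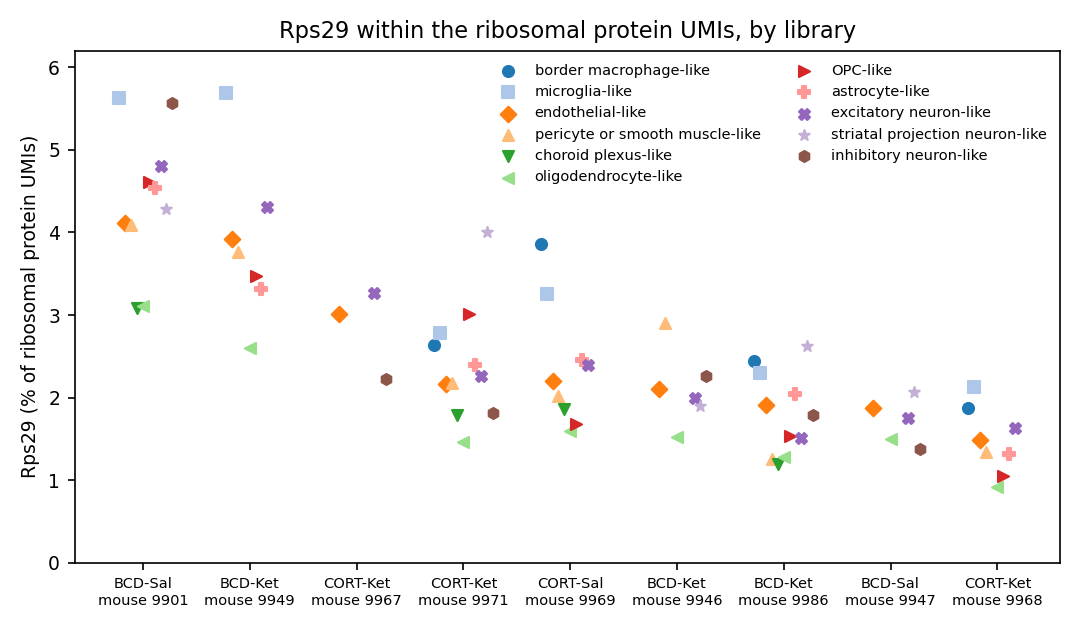
Rps29 as a percentage of member UMIs in each class, by library. BCD-Sal mouse 9901 and BCD-Ket mouse 9949 lie at the top in most classes, up to 5.63% and 5.69%, and CORT-Ket mouse 9968 has the lowest median, 1.41%.

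Treatments were compared within 9 classes in 17 contrasts that had at least 2 libraries in each group, with edgeR's quasi-likelihood test and mouse 9970 included where it had 10 cells. Contrasts of a class share libraries. Every contrast with CORT-Sal was in endothelial-like or excitatory neuron-like cells, and mouse 9970, which stood apart, was 1 of its 2 CORT-Sal libraries. No member was called in any of them (0 of 1240 member tests), where 0% of all genes were called in 12 contrasts, 0.0286% in both oligodendrocyte-like ones, 0.0833% in the striatal one, and 0.0787% and 0.11% in endothelial-like cells for CORT-Ket minus BCD-Ket and CORT-Sal minus BCD-Sal. At an unadjusted p under 0.05 there were 23 member tests (1.85%), and 8 contrasts had none. DESeq2 called 0 members and had 9 at an unadjusted p under 0.05. The share of all genes at an unadjusted p under 0.05 is not given here, so these counts are not read as a result about the members. Over the contrasts the median member log2 difference ran from -0.56 to 0.30. With 2 or 3 mice a group these contrasts resolve only large differences, and p-values measure the spread between libraries of 1 mouse each.

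The members with the smallest p are given as not called. In microglia-like cells, CORT-Ket minus BCD-Ket, Rps28 stood at -1.15 ± 0.37 (edgeR, adjusted p = 1.00) and Rps29 at -1.02 ± 0.38, in a contrast that holds mouse 9949. In astrocyte-like cells the same contrast gave Rps27 at -0.86 ± 0.26 and Rpl38 at -0.82 ± 0.26. It had 6 members at an unadjusted p under 0.05, the most of any contrast, with no share of all genes at that p to set beside them. Leaving out BCD-Ket mouse 9986 from it called Rps28 at -1.29 ± 0.33 (edgeR, adjusted p = 0.0497). That leaves mouse 9949, noted above for its high Rps28, as the only BCD-Ket library, and the fit then assumes that it varies like the libraries of the other groups. In excitatory neuron-like cells Rpl13a stood at -2.05 ± 0.74 for CORT-Ket minus CORT-Sal, and Rpl10 at 1.70 ± 0.62 for CORT-Sal minus BCD-Sal. Both of these contrasts hold mouse 9970. In oligodendrocyte-like cells Rps13 stood at 1.37 ± 0.46 for BCD-Ket minus BCD-Sal.

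The share of UMIs on members was compared between treatments as a description, with 1 to 3 libraries a group. In endothelial-like cells the BCD-Sal values were 6.35% and 6.50%, and the BCD-Ket values 6.18%, 8.84% and 6.59%. The CORT-Sal values were 8.90% and, in mouse 9970, 7.45%, and CORT-Ket had 5.29%, 7.75% and 7.56%. BCD-Sal lay inside the spread of both ketamine groups and below both CORT-Sal libraries. In excitatory neuron-like cells the means were 1.85% ± 0.65 (n = 2), 2.05% ± 0.56 (n = 3), 2.47% ± 0.69 (n = 2, or 2.95% without mouse 9970) and 1.78% ± 0.46 (n = 3) in the same order. In oligodendrocyte-like cells BCD-Sal had 3.23% and 2.96%, below BCD-Ket (3.36%, 4.34% and 3.58%), CORT-Sal (4.31% in 1 library) and CORT-Ket (3.93% and 4.08%). In astrocyte-like cells the share was 1.89% in the 1 BCD-Sal library and 2.37% in the 1 CORT-Sal library. It was 2.096% and 2.15% in CORT-Ket and 2.28% and 2.32% in BCD-Ket. In microglia-like cells the 1 BCD-Sal library was lowest, at 6.74%, while BCD-Ket (7.80% and 11.7%), CORT-Ket (8.37% and 9.90%) and CORT-Sal (9.75% in 1 library) overlapped. Border macrophage-like cells had 12.8% in BCD-Ket, 16.8% in CORT-Sal, and CORT-Ket values of 17.8% and 20.9%. Choroid plexus-like cells had 3.78% in BCD-Sal, 4.15% in CORT-Sal (4.04% in mouse 9970), 5.22% in CORT-Ket and 7.10% in BCD-Ket. The 7.10% came from mouse 9986, whose library is noted above for its low share of choroid plexus markers. The 1 BCD-Sal library of astrocyte-like, microglia-like and choroid plexus-like cells was mouse 9901 each time. That mouse is also in the oligodendrocyte-like BCD-Sal pair and is noted above for its high Rps29. The low BCD-Sal values of these classes are thus not independent. In astrocyte-like, microglia-like, border macrophage-like and choroid plexus-like cells, groups held only 1 or 2 libraries, and in oligodendrocyte-like cells 1 to 3. A separation of treatments cannot be judged in any of these classes. No test was made of this share.

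**Figure D5:**
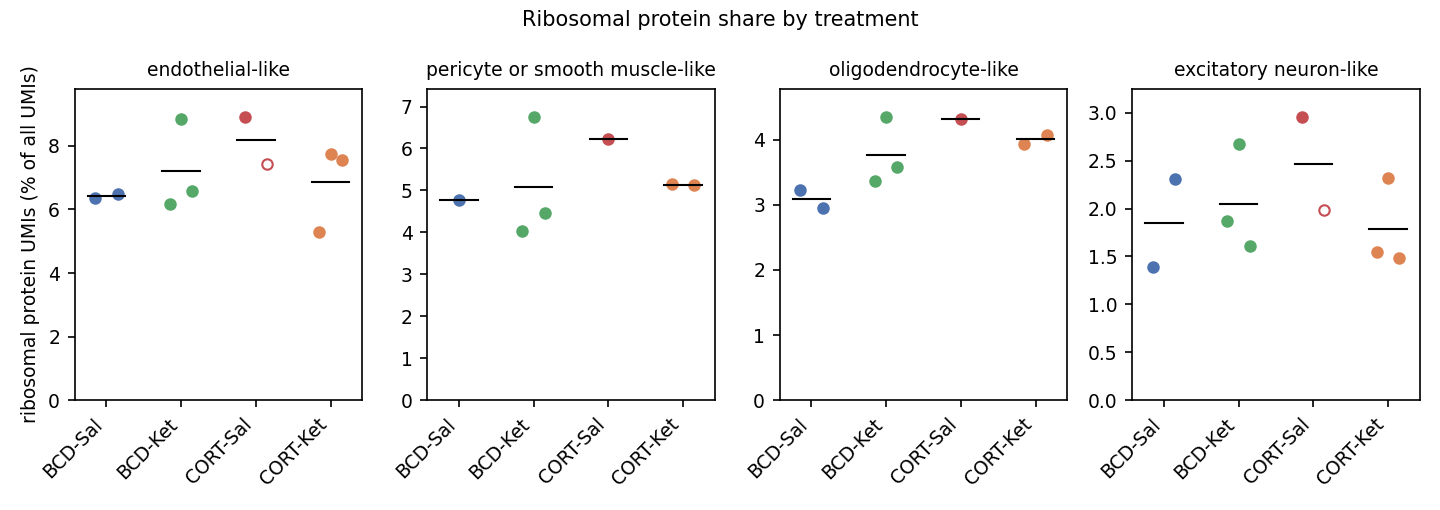
Share of UMIs on the 80 ribosomal protein genes by treatment in 4 classes, in percent, 1 point per library, with the line at the group mean and the open circle for mouse 9970. In endothelial-like cells the libraries lie between 5.29% and 8.90%, and in oligodendrocyte-like cells the BCD-Sal pair, at 2.96% and 3.23%, lies lowest. The oligodendrocyte-like groups hold 1 to 3 libraries, too few to judge a separation.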

How the data were processed

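The deposited files hold raw UMI counts per gene and barcode, from Cell Ranger 3.0.2, as the headers of the matrices state, unnormalized. The submitters' processing notes also name Seurat 3.1.1 and mm9, and the annotation is not given in the sources used here. The study's methods describe regular drinking water for controls in sequencing where the labels say BCD, and the labels were followed. Members and lists were chosen with earlier results of these data known. Barcodes within the study's limit on the mitochondrial share and with at least 200 genes were kept, with no doublet removal in the main setting. Clustering used scanpy 1.11.5 (2000 variable genes, 30 principal components, 20 neighbours, Leiden resolution 0.8 with leidenalg 0.10.2, seed 1), leaving out the members and the listed translation genes. A cluster was named from at least 3 markers of a class among its 50 leading genes. Counts were summed per library and class of at least 10 cells and tested in edgeR 4.0.16 (R 4.3.3) with TMM factors and filterByExpr, with Benjamini-Hochberg adjustment over all genes, and a class needed at least 4 libraries. The library was the block in the class fits, since the classes of a library come from the same mouse. DESeq2 1.42.0, RLE factors, no filter, no block, other mitochondrial, gene and cell limits, other resolutions, doublet scores and leaving out each library were alternatives. For each class or contrast, the text names the 3 members with the largest rise and the 3 with the largest fall among those called, or the 2 with the smallest p where none was called, the listed paralogs and translation genes, and members at the ends of printed ranges. Values of some named genes are not reported here. Rpl13 and Rps29 by library, and Rps28 beside Rps29, were singled out after their values were seen. Scripts were tested on simulated data. Figures used matplotlib 3.10.9.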

Additional observations from a re-analysis of the deposited data

Results flagged for a closer look

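One of 33 groups of 4 to 9 libraries had a library set far from the rest, and chance alone marks about 1 in 20 such groups. The share of Rpl22l1 in the Rpl22 pair in endothelial-like cells was 13.0% in BCD-Ket mouse 9946, the lowest of 9 libraries, on 9 of 69 UMIs. Its gap to the next library was 0.756 of the whole range, and the other 8 libraries lay between 25% and 28.9%.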

How the results depend on the processing

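Depth, with 135 to 1274 kept barcodes a library, limits the rarer classes and the paralog shares of neurons. Of 92 named member values under 1632 alternatives, none reversed, and 75 alternatives, over 21 values, lost a call. On the scale of the member total these included Rpl7l1 (9), Rpl4 (7) and Rps3 (5) in OPC-like, Rps3a1 (7) in astrocyte-like, Rpl13a (4) in inhibitory neuron-like and Rpl7l1 (4) in oligodendrocyte-like cells, and Rps29 (8) in oligodendrocyte-like cells on the usual scale. Classes with too few cells gave no value at some settings, such as choroid plexus-like cells at the 5% mitochondrial limit. Alternatives that were chosen after seeing the data were clusters of excitatory neurons apart, treatment shares without mouse 9970, choroid plexus without its lowest-marker library, and pooled paralog UMIs. None moved a value beyond 1 SD. Leaving 1 library out of a mean cannot move it by 1 SD, so the treatment shares and the choroid plexus value could not have passed this limit.

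The member share of astrocyte-like cells became 1.53% at the 5% mitochondrial limit, 1.93% at 25%, 1.85% and 1.86% at Leiden resolutions 0.4 and 1.2, 1.86% without the highest Scrublet scores, 2.36% over UMIs outside the mitochondrial genome and 1.997% as a mean over cells. That of excitatory neuron-like cells was 2.62% at 25%, of pericyte or smooth muscle-like cells 3.74% at 5% (1 library) and of striatal projection neuron-like cells 2.59% with at least 30 cells (1 library). The Rpl22l1 share moved at the 5% limit to 68.5% in astrocyte-like, 32.0% in endothelial-like, 19.2% in microglia-like and 60.0% in oligodendrocyte-like cells (1 library). In astrocyte-like cells it was 52.1% and 52.3% at resolutions 0.4 and 1.2 and 51.9% without the highest Scrublet scores, in choroid plexus-like cells 27.2% at resolution 1.2 and 52.4% with mouse 9970, and in inhibitory neuron-like cells 59.6% without the highest Scrublet scores.

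Without the replicate block, which joins the classes of 1 mouse, 43 members were lower in astrocyte-like cells and 0 were higher in choroid plexus-like cells, and on the scale of the member total 14 were called in endothelial-like, 16 in inhibitory neuron-like and 9 in OPC-like cells. For the treatments, no paired analysis was possible because the labels number the mice and pair none between groups. Members higher in choroid plexus-like cells were 4 with RLE factors and 2 with DESeq2. In oligodendrocyte-like cells they were 11 at the 25% limit and 3 at resolution 0.4, and in pericyte or smooth muscle-like cells 25, 8, 16 (RLE factors) and 30 (no filter). On the scale of the member total, calls were 5 (5% limit), 28 (resolution 0.4) and 26 (30 cells) in astrocyte-like, 1 in choroid plexus-like, 14 in endothelial-like, 7 in OPC-like and 8 in striatal projection neuron-like cells with no filter, 26 (25% limit) and 22 (Scrublet) in inhibitory neuron-like, 9 in OPC-like at the 5% limit, and 11 (Scrublet) and 12 (30 cells) in pericyte or smooth muscle-like cells. The shares of all genes called at these settings are not given here, and the cause was not tested.

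Leaving out each library in turn gave 41 to 71 members lower in OPC-like, 35 to 73 lower in astrocyte-like, 1 to 2 higher in choroid plexus-like (2 without CORT-Ket mouse 9968), 8 to 37 higher in oligodendrocyte-like and 31 to 71 higher in pericyte or smooth muscle-like cells. On the scale of the member total it gave 8 to 16 in OPC-like (9 without 9949, 9 without 9969, 8 without 9968), 4 to 12 in pericyte or smooth muscle-like (10 without 9986, 10 without 9969, 12 without 9971) and 6 to 13 in striatal projection neuron-like cells (6 without 9986). Over all treatment contrasts it gave 0 to 1. Shares of all genes called without each library are not given here.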
